A study of Mus musculus with 6 samples.

Results

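G0s2 and 8 genes of triglyceride breakdown, storage and synthesis were compared between the whole pancreas of mice lacking Rkip-1 (KO) and of wild-type mice (WT). The set holds G0s2, Pnpla2, Abhd5, Lipe, Plin2, Plin3, Cidea, Dgat1 and Dgat2, and its members are the 15 probe sets whose platform annotation names 1 of these genes and no other, of 45101 probe sets on the array. These 9 genes are among 18193 that had such a probe set. The set was chosen by the RMA values of G0s2, known to be lower in KO in these same arrays, so its genotype difference is given as a description, without a test, and nothing is supported with it. The other 8 genes were added for their place in the pathway.

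Both groups came from 1 colony on a C57BL/6 background, and the tissue of each was taken at 8 weeks of age. Each group held 3 samples that the labels call biological replicates, with 1 Affymetrix array each. The KO group lacks Rkip-1, also known as Raf kinase inhibitor protein and encoded by Pebp1, in a whole-animal comparison where no other allele, Cre driver or treatment is named. The labels give no sex, fasting state, batch or number of animals per sample, so p-values measure the spread between these samples. Whole pancreas is mostly acinar tissue, with islets, ducts, vessels and any adhering fat as smaller parts.

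Fat is stored in cells as triglyceride inside lipid droplets. Breakdown starts when the lipase ATGL, the product of Pnpla2, removes the first fatty acid, a step that the co-activator CGI-58 (Abhd5) stimulates and G0s2 inhibits by binding the lipase. Hormone-sensitive lipase (Lipe) takes the next step, coat proteins such as the perilipins Plin2 and Plin3 sit on the droplet and limit access to it, and Dgat1 and Dgat2 catalyse the last step of triglyceride synthesis. G0s2 is best known from adipose tissue and liver.

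The upstream sequences of G0s2 and of Pnpla2, the gene of the lipase it inhibits, are shown because this pair is the regulatory unit that the comparison is about. They are the 250 bases before the transcription start, 5′ to 3′ on the gene's strand, from RefSeq for build GRCm38.p6. G0s2 lies on the minus strand at chr1:193273189-193273438 and Pnpla2 on the plus strand at chr7:141454938-141455187. Capitals mark GC boxes, GGGCGG on either strand.
G0s2 upstream: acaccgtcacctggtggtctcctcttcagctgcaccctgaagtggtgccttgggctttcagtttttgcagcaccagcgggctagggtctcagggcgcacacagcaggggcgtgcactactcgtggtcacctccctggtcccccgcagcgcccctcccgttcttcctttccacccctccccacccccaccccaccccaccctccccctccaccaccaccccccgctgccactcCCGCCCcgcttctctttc
Pnpla2 upstream: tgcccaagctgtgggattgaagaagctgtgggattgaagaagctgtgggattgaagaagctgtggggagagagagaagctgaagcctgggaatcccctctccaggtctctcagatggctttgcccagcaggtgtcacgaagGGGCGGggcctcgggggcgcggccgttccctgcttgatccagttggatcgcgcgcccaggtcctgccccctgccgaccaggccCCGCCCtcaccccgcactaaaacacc
The G0s2 stretch holds 1 GC box and that of Pnpla2 holds 2, and 32.7% of the 32851 promoter entries searched over the same length hold at least 1. Of the 9 genes, 6 had a promoter entry among those used, and Lipe had 2 entries. Entries of the 9 genes on 1 chromosome were left out beforehand, so a missing entry is not shown for every other gene. The shares over all entries kept that chromosome. The PPAR response element, a direct repeat of AGGTCA with 1 base between the copies, was searched on both strands and was in 0 of these 7 entries and in 0.0335% of all entries. Its core AGGTCA, which overlaps it where present, was in the Plin2 and Abhd5 entries and in 14.0% of all. G0s2 is 67.2% G or C in this window, against a median of 52.4%, and holds CACCC, counted on both strands, 7 times. That motif was chosen after the sequence was seen, it shares no base with the GC box there, and 0.0974% of all entries hold it 7 or more times.

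Array medians ran from 2.97 to 3.02 (log2), and the upper quartile averaged 4.54. Values near the median carry little signal, and no probe set has a detection call here. Of the 15 member probe sets, 7 averaged above the upper quartile, 3 lay between the median and the upper quartile, and 5 lay below the median. Pebp1, the gene removed, measured 5.71 to 6.50 in KO and 9.81 to 10.01 in WT by its brightest probe set. Xist, which silences an X chromosome in female cells, was high in replicates 2 and 3 of KO and replicate 3 of WT, and low in the other 3 arrays. The Y-linked Eif2s3y went the other way, at 4.89 in KO replicate 1 and 4.76 and 5.29 in WT replicates 1 and 2. In the arrays of high Xist it lay at 2.20 to 2.92, and the Y-linked Kdm5d and Uty split the arrays in the same way. Over all 45037 probe sets tested, 44 passed an adjusted p of 0.05 by limma, a moderated linear model with Benjamini-Hochberg adjustment, which is 0.0977%. Leaving out KO replicate 1 gave 24, KO replicate 2 gave 18, WT replicate 1 gave 26 and WT replicate 2 gave 16.

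G0s2, the inhibitor, measured 3.43, 3.88 and 4.29 in KO replicates 1, 2 and 3 and 6.43, 6.38 and 5.27 in WT replicates 1, 2 and 3 (RMA values, log2). Every KO value was below every WT value, with WT replicate 3 lowest among the WT arrays and KO replicate 1 lowest of all. The means were 3.87 ± 0.43 and 6.03 ± 0.66 (SD, n = 3 each), a difference of -2.16, or 4.47-fold. As the KO values lie below the upper quartile of the arrays, this fold can be too small. G0s2 has 1 probe set, so no other probe set of the gene bears on it. In bulk tissue, fewer cells that express a gene and less of its RNA per cell cannot be told apart.

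**Figure D1:**
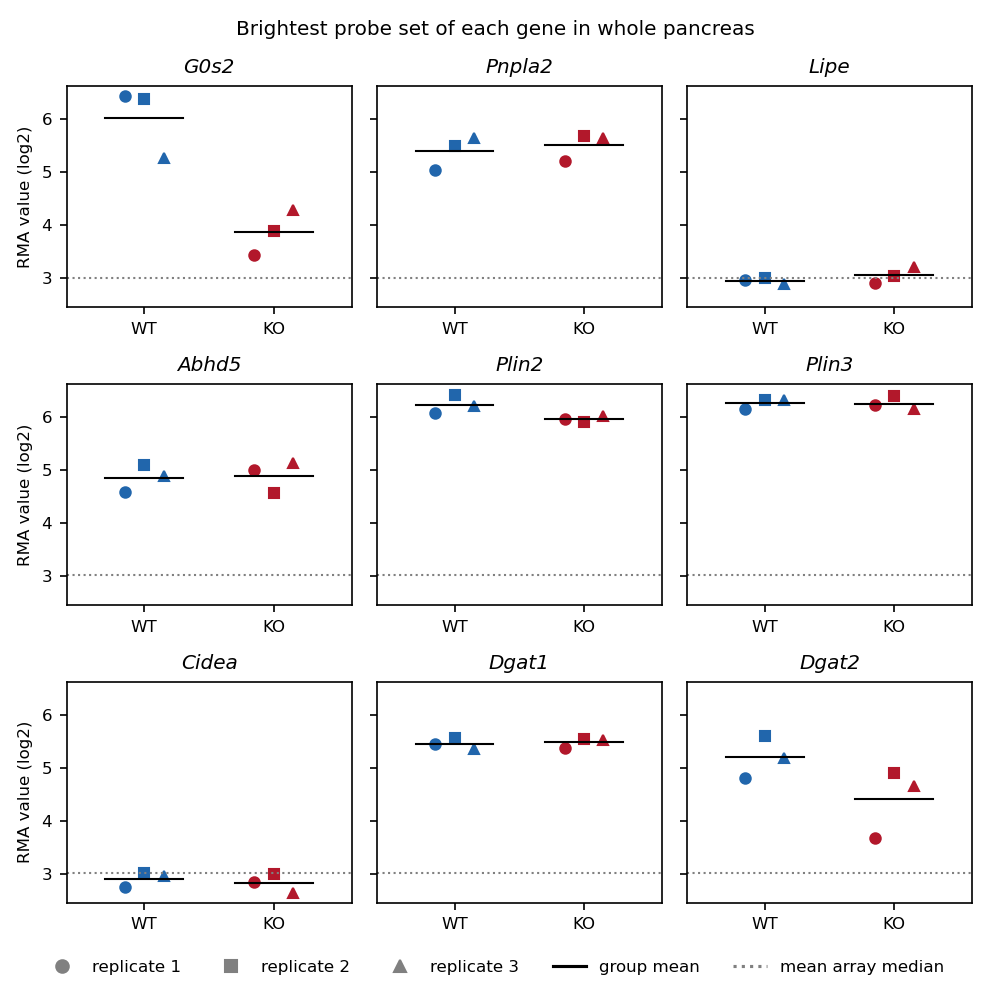
RMA values (log2) of the brightest probe set of each of the 9 genes, 1 point per array, in WT (blue) and KO (red). Marker shapes are replicate numbers, black bars are group means and the dotted line is the mean of the array medians. G0s2 spans 3.43 to 6.43 with its groups apart, Dgat2 spans 3.67 to 5.60 with its groups overlapping, and Lipe and Cidea lie near the dotted line.

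Pnpla2, the lipase that G0s2 inhibits, differed little between the genotypes. Its brightest probe set measured 5.21, 5.67 and 5.65 in KO and 5.04, 5.49 and 5.63 in WT. The groups overlapped, and replicate 1 was the lowest array in each. The difference was 0.12 (log2), where the 95% interval was -0.26 to 0.51 and limma gave an adjusted p of 0.89. The interval runs from 0.834-fold to 1.42-fold. A second Pnpla2 probe set, at 2.54 to 3.00 over all arrays, lay at or below the array medians and differed by 0.09 (-0.20 to 0.37).

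Lipe, the lipase that acts on diglyceride, was near the array medians in both groups. Its values were 2.91, 3.04 and 3.20 in KO and 2.97, 2.99 and 2.88 in WT. The groups overlapped, with a difference of 0.10 (-0.12 to 0.33, adjusted p 0.827 by limma), and a change in Lipe could not be read at this signal. Its other probe set lay between 2.28 and 2.45 in all 6 arrays.

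Abhd5, the co-activator of Pnpla2, measured 4.99, 4.56 and 5.12 in KO and 4.58, 5.09 and 4.87 in WT. The groups were interleaved, and the difference was 0.04 (-0.33 to 0.42, adjusted p 0.964 by limma). A second Abhd5 probe set differed by -0.10 (-0.41 to 0.21), and the third lay below the array medians at a difference of 0.01. None of the 3 differed beyond the spread between arrays.

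Plin2, the coat protein found on droplets of most cell types, was the 1 member besides G0s2 whose groups did not overlap. It measured 5.95, 5.90 and 6.02 in KO and 6.07, 6.40 and 6.20 in WT. The KO arrays lay within a narrow span just under the lowest WT array, which was replicate 1. The difference was -0.26 (-0.50 to -0.03), or 1.20-fold, with an unadjusted p of 0.0314 and an adjusted p of 0.52 by limma, so it did not pass. Over all probe sets 13.5% had groups that did not overlap, against 1 of these 14, or 7.14%.

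Plin3, a coat protein that moves between cytosol and droplet, measured 6.22, 6.39 and 6.14 in KO and 6.16, 6.32 and 6.32 in WT. The groups overlapped and had nearly equal means, with a difference of -0.02 and an interval of -0.24 to 0.21 (adjusted p 0.979 by limma). Cidea, a droplet protein best known from brown fat, stayed between 2.64 and 3.01 in all arrays, near or under the array medians. Its difference was -0.08 (-0.34 to 0.18, adjusted p 0.896 by limma).

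Dgat1, the acyltransferase of the endoplasmic reticulum, measured 5.38, 5.53 and 5.53 in KO and 5.45, 5.55 and 5.34 in WT. The groups overlapped, with a difference of 0.03 (-0.19 to 0.24, adjusted p 0.957 by limma). A second Dgat1 probe set differed by -0.21 (-0.45 to 0.04, adjusted p 0.638 by limma), so the 2 probe sets had opposite signs and neither passed.

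Dgat2, the second acyltransferase, had the widest spread after G0s2 among the 9 brightest probe sets. It measured 3.67, 4.89 and 4.65 in KO and 4.80, 5.60 and 5.17 in WT. KO replicate 1 lay well below every other array, and KO replicate 2 lay above WT replicate 1, so the groups overlapped. The difference was -0.79 (-1.45 to -0.13), or 1.73-fold, with an unadjusted p of 0.0244 and an adjusted p of 0.495 by limma. Without KO replicate 1 the difference was -0.42, with an adjusted p of 0.683. The other Dgat2 probe set differed by -0.08 (-0.54 to 0.37), from 3.79, 4.25 and 4.15 in KO and 3.68, 4.55 and 4.21 in WT.

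In all, 0 of the 14 probe sets of the 8 genes other than G0s2 passed the adjusted threshold by limma, where the share over all probe sets was 0.0977%. At an unadjusted p under 0.05 there were 2, those of Plin2 and Dgat2, which is 14.3% against 8.68% of all probe sets. The 14 probe sets were split evenly, 7 lower and 7 higher in KO, with a median difference of -0.01 beside 0.01 over all probe sets. The 95% intervals reached from 0.20 to 0.66 on either side of the difference with 3 arrays a group. These widths match an unadjusted p of 0.05 by limma, and passing the adjusted threshold takes a larger difference. Plin2 and the brightest Dgat2 probe set had intervals off 0 and did not pass.

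**Figure D2:**
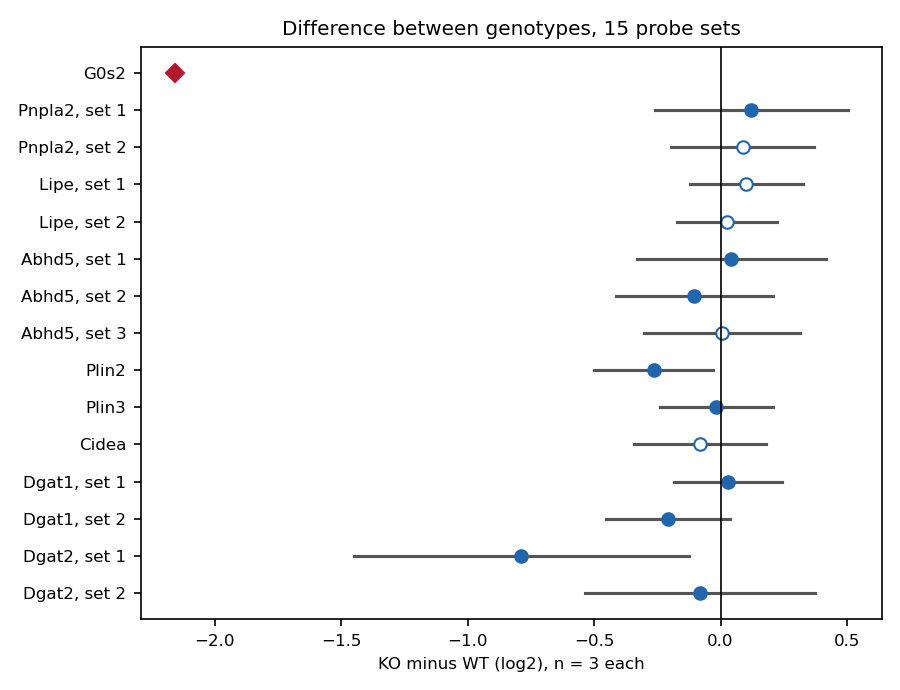
KO minus WT (log2) for the 15 probe sets, numbered by brightness within a gene, with 95% intervals from limma for all but G0s2, which was chosen for its difference (red diamond). Open points average below the mean of the array medians. G0s2 stands at -2.16 and the others between -0.79 and 0.12, with intervals off 0 only for Plin2 and the brightest Dgat2 probe set.

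Adipocytes are a known site of G0s2 and Dgat2 expression, and adhering fat can be carried into a dissected pancreas. Of 11 white adipocyte markers, 8 were measured, and Plin1, Cfd and Adrb3 were not analysed here. In KO 6 of the 8 were lower and 2 higher, 0 passed by limma, and 0 had an unadjusted p under 0.05. Over all genes 50.2% were lower, 0.132% passed and 10.1% had an unadjusted p under 0.05. The mean marker level was 3.77, 5.81 and 5.79 in KO replicates 1, 2 and 3 and 5.34, 6.30 and 5.90 in the WT arrays. KO replicate 1 stood apart, with the adipocyte hormone Adipoq at 2.26 against 5.12 to 6.99 in the other 5 arrays and the muscle and fat enzyme Car3 at 2.51 against 9.19 to 10.86. Fabp4, a fatty acid carrier of adipocytes and some vessels, measured 9.03 there and 9.42 to 10.33 elsewhere. The hormone Lep lay between 2.58 and 2.72 in all arrays, below the array medians, as did Cidec at 2.30 to 2.78.

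KO replicates 2 and 3 had a higher adipocyte marker level than WT replicate 1, and G0s2 measured 3.88 and 4.29 in them and 6.43 in WT replicate 1. Without KO replicate 1 the G0s2 difference was -1.94. For Dgat2 the level followed the markers over the 6 arrays, with a Pearson r of 0.94 (exact permutation p 0.00972) and a Spearman rho of 0.94 (exact permutation p 0.0167). Over the 8 genes so compared, the adjusted values were 0.0778 and 0.133, and without the 2 arrays farthest from the median marker level, KO replicate 1 and WT replicate 2, r was 0.40. The relation of Dgat2 therefore rests on those arrays. The permutations ignored genotype, and Dgat2 and 6 of the 8 markers were lower in KO. Its r can thus include the genotype difference, and a relation within the groups was not tested. For the other 7 genes r ran from -0.01 to 0.60, with adjusted permutation p of 0.522 or more. Without the same 2 arrays their r ran from -0.09 to 0.97, with Pnpla2 rising from 0.60 to 0.97 and Dgat1 at the low end, over 4 arrays. No r is given for G0s2, whose arrays fall into separate groups by genotype. The part of adhering fat in the differences of G0s2 and Dgat2 was not tested.

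**Figure D3:**
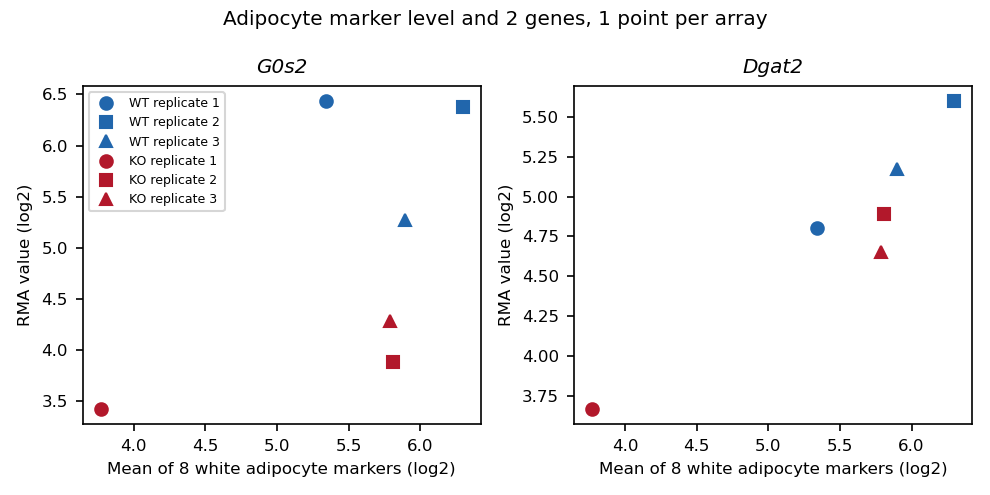
RMA values (log2) of G0s2 (left) and of the brightest Dgat2 probe set (right) against the mean of 8 white adipocyte markers (log2), 1 point per array, with WT in blue and KO in red. KO replicate 1 is the point at a marker level of 3.77. KO replicates 2 and 3, at 5.81 and 5.79, lie among the WT arrays in marker level and below them in G0s2.

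Other cell types were read from their own markers, and 0 members of these lists passed by limma, where 0.132% of all genes did. The 6 brown adipocyte markers, Ucp1 among them at 2.22 to 2.49, lay below the upper quartile in level, and 7 liver markers had a mean level of 3.15 to 3.45 in KO and 3.23 to 3.43 in WT. Of 7 acinar markers 6 were lower, by at most 0.08, and the acinar enzyme Cel, at 14.26 to 14.32 in all arrays, marks the tissue as pancreas at the compressed top of the scale. All 6 islet markers were lower, with a median of -0.13 and Ppy at -0.30. The 4 duct markers had a median of 0.13, 3 higher and 1 lower, with Sox9 at 0.52 and Krt19 at -0.26. The 5 macrophage markers had a median of -0.18 and the 4 endothelial markers a median of -0.04. The 3 neutrophil markers, a cell type where G0s2 is also known, were higher in KO, with a mean level of 2.85, 5.50 and 3.71 against 2.77, 3.55 and 3.00 in WT. The highest of these was KO replicate 2, and the part of neutrophils in the G0s2 difference was not tested.

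The share of arrays with high Xist was unequal, 2 of 3 in KO and 1 of 3 in WT. Among the arrays with high Xist, G0s2 differed by -1.18 between KO and WT, and among those with low Xist by -2.98, a single KO array against 2 WT arrays. That KO array was replicate 1, which also had the lowest adipocyte marker level, 3.77. In both strata every KO value was below every WT value, which any split must give, since the groups do not overlap over all arrays. With the Xist level as a covariate the G0s2 difference was -2.08. Dgat2 differed by -0.40 and -1.53 in the arrays of high and low Xist, and Plin2 by -0.24 and -0.29. This split was added after the data were seen, and sex cannot be told apart from single arrays in it.

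Other lipid droplet proteins showed no common direction. Of 13 listed, 11 were measured, 7 lower and 4 higher, with a median difference of -0.04 against -0.00056 over all 18193 genes. By limma 0 passed, where 0.132% of all genes did. Hsd17b11, a dehydrogenase found on droplets, measured 6.62, 6.85 and 6.73 in KO and 6.27, 6.27 and 6.43 in WT, a difference of 0.41 with every KO value above every WT value (adjusted p 0.276). By the brightest probe set per gene, 14.4% of all genes had groups that did not overlap and 10.1% an unadjusted p under 0.05, against 1 and 2 of these 11. Bscl2, the seipin that shapes nascent droplets, differed by -0.29, the small GTPase Rab18 by 0.23 and the droplet-forming Fitm2 by -0.22. Plin5, a coat protein that binds Pnpla2 and Abhd5 in oxidative tissue, lay between 2.87 and 3.05 in all arrays.

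Of 9 other hydrolases of neutral lipid, 8 were measured, 5 lower and 3 higher in KO with a median of -0.16. By limma 0 passed, where 0.132% of all genes did. Lpl, which frees fatty acids from plasma lipoproteins, measured 8.10, 8.80 and 8.82 in KO and 8.67, 9.21 and 9.22 in WT. The groups overlapped, with KO replicate 1 lowest as for the adipocyte markers, and the difference was -0.46 (adjusted p 0.583). Abhd6, a monoglyceride lipase, measured 5.18, 4.93 and 5.31 in KO and 5.71, 5.39 and 5.46 in WT. Its groups did not overlap, and the difference of -0.38 did not pass (adjusted p 0.426 by limma). Groups did not overlap for 3 of the 8, Abhd6 and Lipa lower and Ddhd2 higher, against 14.4% of all genes. Mgll, which completes lipolysis by cleaving monoglyceride, lay between 7.11 and 7.19 in all 6 arrays, a difference of 0.02. Ces1d differed by -0.26 and Ddhd2 by 0.25. Lipa, the acid lipase of lysosomes, differed by -0.36 below the upper quartile (adjusted p 0.375) and was singled out after its values were seen.

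Genes that carry the hormonal control of lipolysis were measured for 13 of 17, with 5 lower and 8 higher and a median of 0.07. Past the threshold by limma were 0, against 0.132% of all genes. Akt2, a kinase of insulin signalling, measured 7.14 ± 0.13 in KO and 6.76 ± 0.11 in WT (SD, n = 3 each), a difference of 0.37 with every KO value above every WT value (adjusted p 0.347 by limma). The protein kinase A subunits Prkar1a and Prkacb differed by -0.27 and -0.22, the insulin receptor substrate Irs1 by 0.13, and the beta-adrenergic receptors were not analysed here. Of the 13 genes, 3 had groups that did not overlap, Akt2 higher and Prkar1a and Prkacb lower, against 14.4% of all genes.

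Among other enzymes of triglyceride synthesis, 19 of 21 were measured, 12 lower and 7 higher with a median of -0.06. Of these 0 passed by limma, against 0.132% of all genes. Lpin1, a phosphatidate phosphatase that makes the diglyceride used by Dgat1 and Dgat2, measured 4.70, 4.90 and 4.95 in KO and 5.11, 5.33 and 5.15 in WT. Its groups did not overlap, with a difference of -0.35 (adjusted p 0.389 by limma). Groups did not overlap for 3 of the 19, Lpin1 lower and Acsl4 among the higher ones, against 14.4% of all genes. The acyl-CoA synthetase Acsl4 differed by 0.22, Gpat4 by -0.19 and Gpd1 by -0.18.

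Of 30 genes for the PPAR receptors, their known targets and fatty acid oxidation, 25 were measured, 12 lower and 13 higher in KO with a median of 0.02. By limma 1 of the 25 passed, where 0.132% of all genes did. It was Fgf21, a secreted metabolic hormone, which fell from 7.11, 6.26 and 5.62 in WT to 3.49, 4.02 and 4.14 in KO. The difference was -2.45 (adjusted p 0.0301 by limma). The fall of Fgf21 was known when the list was made, so it is no independent support. The receptors Ppara and Pparg differed by 0.13 and 0.02, both from levels near the array medians. Cpt1a, which admits fatty acids to mitochondria, differed by -0.01, and Angptl4, an inhibitor of Lpl, by 0.05. Pdk4, a kinase that spares glucose in fasting, measured 4.42 in KO replicate 1 and 2.83 to 3.34 in the other arrays. Cd36, a fatty acid transporter, differed by -0.53 with groups that did not overlap (adjusted p 0.479 by limma), the peroxisomal enzyme Ehhadh by -0.27, and Hadha and Ppard by 0.17 each. Of the 25 genes, 2 had groups that did not overlap, Fgf21 and Cd36, against 14.4% of all genes.

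**Figure D4:**
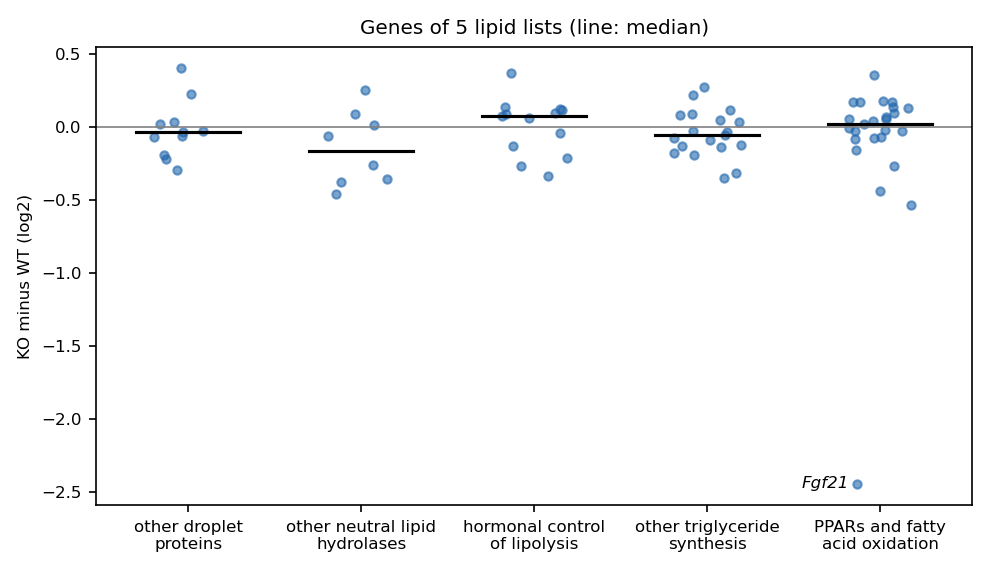
KO minus WT (log2) by the brightest probe set for the measured genes of 5 lipid lists, 1 point per gene, spread sideways at random, with a line at the median of each list. The medians lie between -0.16 and 0.07, and Fgf21 at -2.45 is the 1 gene past the adjusted threshold.

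The profile of G0s2 over the 6 arrays was compared with those of the other 18192 genes by the root mean square difference of the levels, each gene's mean subtracted first. The median gene lay 1.18 log2 units from G0s2. The nearest was Fgf21 at 0.29, followed by Ddit4 at 0.35, Trib3 at 0.45, Chac1 at 0.47 and Tcim at 0.62. Ddit4, an inhibitor of mTORC1 signalling, measured 5.76, 6.42 and 6.67 in KO and 8.67, 8.03 and 6.90 in WT. Trib3, a pseudokinase, measured 4.13, 4.63 and 4.52 in KO and 6.00, 6.08 and 5.29 in WT. Chac1, which degrades glutathione, measured 6.59, 8.34 and 8.54 in KO and 10.78, 10.84 and 9.74 in WT. Tcim measured 6.82, 7.78 and 7.87 in KO and 8.65, 8.72 and 8.50 in WT. In G0s2 and these 5 genes KO replicate 1 was the lowest array and WT replicate 3 the lowest of the WT arrays. This shared order follows in part from choosing the genes by nearness to G0s2. The likeness includes the genotype difference for which G0s2 was chosen, over 6 arrays that share their normalization, and has no test.

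**Figure D5:**
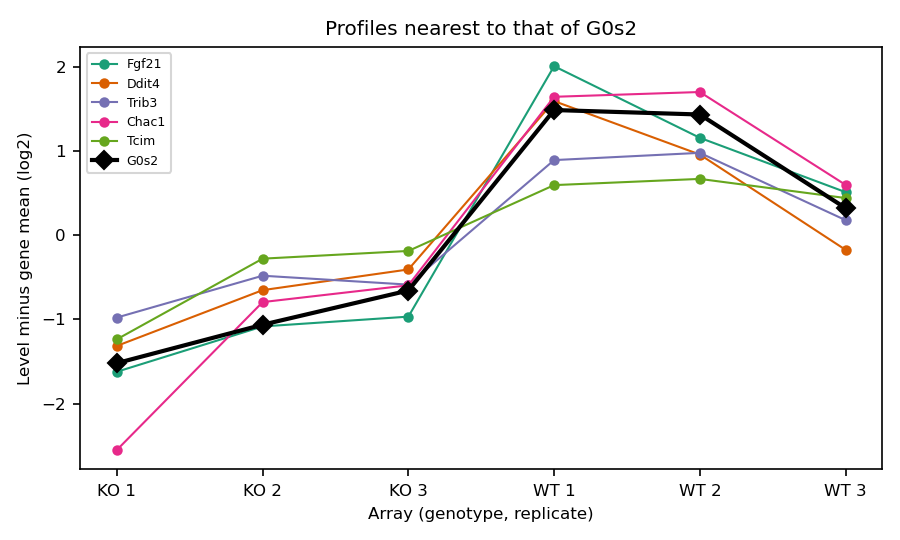
Level minus the gene's own mean (log2) in each array for G0s2 (black diamonds) and the 5 genes of nearest profile, which lie 0.29 to 0.62 log2 units from it. Lines join the arrays of a gene to guide the eye, and the arrays of a group have no order. WT replicate 3 lies between the other WT arrays and the KO arrays in G0s2.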

How the data were processed

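The deposited values are log2 expression values, 1 per probe set and array. Per the submitters' processing notes, the authors used RMA from the affy package, which covers background correction, quantile normalization and probe summary; its versions and settings, and a genome build, were not given in the sources used here. A change shared by most genes is not visible in such values, and bright probe sets are compressed.

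Of 45101 probe sets, 64 controls were left out of the tests. Genes were named from 34958 probe sets with 1 symbol in the platform annotation (932 had several, 9211 none), updated by Entrez identifier for 34754. KO minus WT was fitted on 45037 probe sets with limma 3.58.1 under R 4.3.3 (lmFit, eBayes), two-sided, without covariates, with Benjamini-Hochberg adjustment over all of them and a threshold of 0.05. The fit was tested on simulated data. Intervals use 9.53 degrees of freedom. Each gene is represented by its brightest probe set. The number of arrays limits the precision, and exact permutation tests of 3 against 3 arrays cannot go below 0.1. Figures used matplotlib 3.10.9.

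The members, gene lists and tests were chosen with earlier results of these data known. Named were the members, and genes of each list past the threshold or up to 4 of largest difference above the upper quartile of level (2 for cell type lists). Also named were 12 genes whatever their result, the 5 profiles nearest to G0s2, Pebp1 and Xist. Lep, Cidec, Ucp1 and the Y-linked Eif2s3y, Kdm5d and Uty were named outside these rules. Any other gene given with values is marked as picked after its values were known. Promoter sequences served for description only.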

Additional observations from a re-analysis of the deposited data

How the results depend on the processing

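None of the 14 probe sets of the other 8 genes, nor their means per gene, passed under any of 14 other settings, with a lowest adjusted p of 0.126 to 0.715 by limma. The G0s2 difference kept its sign in all, from -2.54 to -1.94 with 1 array left out. As its groups do not overlap, leaving out an array could not change the sign. Within arrays of high and low Xist the G0s2 difference was -1.18 and -2.98, a split added after seeing the data. The count of 44 probe sets past the threshold (33 higher, 11 lower) was 16 to 41 (13 to 27 and 3 to 14) with 1 array left out, 22 (19 and 3) with the Xist covariate, and 76 in all and 28 lower at an adjusted p under 0.1. With the replicate number as a block it was 33, with 6 lower, and the G0s2 difference stayed at -2.16. The brightest Dgat2 probe set had an adjusted p of 0.126 by limma with that block. Same-numbered deviations correlated at 0.19, -0.03 and -0.08, and 1 of 3 KO arrays correlated best with its own number. Deviations from means of 3 arrays cannot decide whether the numbers pair the arrays. Differences near 0 changed sign: Pnpla2 was -0.034 with the Xist covariate and -0.052 to 0.27 with 1 array left out, Abhd5 -0.018 by the mean of its probe sets and -0.092 to 0.21, Plin3 0.045 after a second quantile normalization and -0.085 to 0.038, Dgat1 -0.089 by the mean of its probe sets and -0.023 to 0.082, and Cidea -0.17 to 0.012. The cause of these changes was not tested. Signal limits Lipe, Cidea, the dimmer Pnpla2 probe set and the dimmest of Abhd5, which average below the mean of the array medians.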

Other observations

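The next profiles in likeness to G0s2, chosen after their values were seen, were those of Fam81a at 0.63 log2 units, Ddit3 (CHOP, a stress transcription factor) at 0.67, Syvn1 (a ubiquitin ligase of the endoplasmic reticulum) at 0.68, the replication helicase subunit Mcm5 at 0.70 and the chaperone Hsph1 at 0.72. Ddit3 measured 5.08, 5.52 and 5.27 in KO and 6.48, 6.53 and 5.60 in WT. There too WT replicate 3 lay nearest to the KO arrays, which follows in part from the choice by likeness to G0s2. The groups overlapped for Syvn1 and Hsph1 and did not for the other 3.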
